A study of Homo sapiens with 8 samples.

Results

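The G1/S and DNA replication genes are 41 genes that carry a cell through the passage from G1 into S phase and through the copying of its DNA. They were taken by symbol from a list of 41 names, and all 41 stood in the table of 26716 genes and passed the filter on low counts that left 17715 genes to test. The cells were HepG2, a human liver cancer cell line, and their poly(A) RNA was sequenced in single-end reads 50 bases long. The 4 groups of 2 libraries each crossed a miR-552-3p mimic with an siRNA against importin8 (IPO8). In siIPO8-miR-552-3p the cells had received the mimic at 1 nM and the importin8 siRNA at 30 nM. The miR-552-3p cells had the mimic with a control siRNA. The siIPO8-NC cells had a control mimic with the importin8 siRNA, and the NC cells had the control mimic with the control siRNA, at the same doses. All 4 groups were treated for 72 h, and the controls too had received a mimic and an siRNA. All libraries came from 1 cell line, and the labels leave unsaid whether replicates are separate cultures. The p-values therefore rest on the spread between these libraries alone, and that spread may be technical.

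Entry into S phase is controlled by the retinoblastoma protein, which holds E2F transcription factors in check until cyclin D and cyclin E kinases phosphorylate it. E2F then drives transcription of the genes for origin licensing, for the replication fork and for nucleotide synthesis, many of which carry E2F sites close to their start. Origins are licensed in G1 when ORC, CDC6 and CDT1 load the MCM2 to MCM7 ring, which CDC45 and the GINS complex later turn into the active helicase. Importin8 is a nuclear import receptor that is also known to act in the transport of Argonaute proteins.

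The mature miR-552-3p is shown because the mimic is the agent tested. Promoters are shown for 4 of the genes, which differed in their response to the mimic with the control siRNA, described below. E2F2 and E2F1 had the most negative log2 fold changes of the 41 with the mimic and control siRNA, MCM3 had the most negative of the licensing genes with a mean of at least 100 counts, and RRM2 did not pass the test there. The sequences are RefSeq's, on GRCh38.p14, written 5′ to 3′ on the strand of the gene. The miRNA lies at chr1:34669614-34669634 on the minus strand, and the capitals mark its seed, bases 2 to 8. The promoter windows run from 250 bases before to 50 bases after the annotated start, and capitals mark matches to either of the E2F motif letters TTTNGCGC and GGCGGGAA on either strand. They lie at chr20:33686336-33686635 (E2F1, minus strand), chr1:23531184-23531483 (E2F2, minus strand), chr6:52284693-52284992 (MCM3, minus strand) and chr2:10122489-10122788 (RRM2, plus strand, with no match).
hsa-miR-552-3p: aACAGGUGacugguuagacaa
E2F1: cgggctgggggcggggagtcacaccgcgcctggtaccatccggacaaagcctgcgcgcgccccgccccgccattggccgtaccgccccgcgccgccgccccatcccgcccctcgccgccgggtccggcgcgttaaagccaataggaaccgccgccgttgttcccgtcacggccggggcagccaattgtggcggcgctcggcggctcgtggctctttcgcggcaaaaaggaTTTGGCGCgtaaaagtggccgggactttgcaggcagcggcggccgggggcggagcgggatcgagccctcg
E2F2: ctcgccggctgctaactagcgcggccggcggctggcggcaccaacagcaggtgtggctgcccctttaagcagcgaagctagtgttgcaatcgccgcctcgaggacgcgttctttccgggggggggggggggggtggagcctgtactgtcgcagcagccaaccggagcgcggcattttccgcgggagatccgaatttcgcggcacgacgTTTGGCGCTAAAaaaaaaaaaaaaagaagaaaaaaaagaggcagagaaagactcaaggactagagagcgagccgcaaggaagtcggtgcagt
MCM3: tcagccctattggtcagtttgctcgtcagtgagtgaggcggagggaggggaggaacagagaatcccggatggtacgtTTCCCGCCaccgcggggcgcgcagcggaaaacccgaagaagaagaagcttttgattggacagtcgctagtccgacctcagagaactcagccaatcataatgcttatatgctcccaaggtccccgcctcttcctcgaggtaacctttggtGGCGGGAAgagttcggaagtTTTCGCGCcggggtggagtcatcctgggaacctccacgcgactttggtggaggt
RRM2: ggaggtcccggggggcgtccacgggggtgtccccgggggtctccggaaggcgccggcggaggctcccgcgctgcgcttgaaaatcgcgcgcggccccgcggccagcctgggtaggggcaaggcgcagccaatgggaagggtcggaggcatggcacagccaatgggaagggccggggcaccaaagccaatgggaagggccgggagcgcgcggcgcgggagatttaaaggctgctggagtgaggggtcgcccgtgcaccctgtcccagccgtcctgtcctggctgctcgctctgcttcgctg

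Promoter windows were found for 36 of the 41 genes, with none used for CCND1, CCNE2, GINS4, MCM4 and MCM5. TTTNGCGC stood in 15 of the 36 windows (41.7%), against 500 of 27305 windows of all genes (1.83%), and GGCGGGAA in 11 (30.6%), against 868 (3.18%). Together 24 of the 36 windows held at least one of the E2F motifs, including E2F1, E2F2, MCM2, MCM3, MCM6, MCM7, CDC6, CDT1 and PCNA. The CCAAT box letters CCAAT stood in 20 windows (55.6%), against 35.7% of all, and the E-box letters CACGTG in 4 (11.1%), against 7.43%. The letters TTTGAA, the core of the cell cycle homology region known from late cell cycle genes, stood in 1 window (2.78%), against 15.4% of all. The reverse complement of the miR-552-3p seed, CACCTGT, was in none of the 36 windows on either strand, against 4.11% of all windows, which says only that these letters are not in these windows. Both strands were searched for each motif, and matches of different motifs may overlap. The 27305 windows were not limited to the genes tested, and were not matched to the 36 for base composition.

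Each of the 8 libraries held 21608563 to 22102373 expected counts. IPO8 itself stood at 7.65 and 8.3 CPM in siIPO8-miR-552-3p, 25.4 and 24.6 CPM in miR-552-3p, 11.3 and 11.5 CPM in siIPO8-NC, and 34.7 and 33.3 CPM in NC, so it was lower in every library with the importin8 siRNA. Its log2 fold change was -1.65 (SE 0.09, adjusted p = 1.4e-06) for siIPO8-miR-552-3p over miR-552-3p and -1.57 (SE 0.08, adjusted p = 4.5e-07) for siIPO8-NC over NC, and it was also lower with the mimic, at -0.44 (SE 0.08, adjusted p = 0.00083) for miR-552-3p over NC. The 10 hepatocyte markers summed to 68800 to 72700 CPM in siIPO8-miR-552-3p, 47500 to 48500 CPM in miR-552-3p, 61600 to 63700 CPM in siIPO8-NC and 59900 to 66000 CPM in NC, with ALB the highest of them in all 4 groups. Single hepatocyte markers went both ways, with log2 fold changes of -2.32 to 3.25 for miR-552-3p over NC and -0.42 to 2.68 for siIPO8-NC over NC. The 7 fibroblast markers, 3 of them tested, summed to 8.58 to 19.8 CPM over all libraries, with DCN and LUM at 0 in both libraries of 3 groups. The 8 endothelial and blood cell markers, 6 of them tested, summed to 103 to 108 CPM in siIPO8-miR-552-3p, 155 to 165 CPM in miR-552-3p, 78.7 to 102 CPM in siIPO8-NC and 82 to 89.5 CPM in NC. These sums hold opposite changes. CD68, a lysosomal protein gene of macrophages, averaged 81.6 CPM in siIPO8-miR-552-3p, 117 CPM in miR-552-3p, 68.9 CPM in siIPO8-NC and 6.66 CPM in NC, while PECAM1, an endothelial adhesion gene, averaged 19.8, 27.5, 15.4 and 70.5 CPM in the same order. CD79A, of the B cell receptor, stood at 12.8 CPM in miR-552-3p and at most 0.598 CPM on average elsewhere, VWF, the endothelial clotting factor gene, was at 7.62 CPM in NC and 1.67 to 2.53 CPM elsewhere, and the part of these markers in the results was not tested. One unnamed predicted gene took 6.9 to 8.92% of the counts in the 3 groups other than NC and 11.27 and 11.6% in NC.

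Over the 4 groups the levels of the 41 genes were mostly lowest with the mimic alone and highest with the importin8 siRNA alone. The mean was lowest in miR-552-3p for 37 of the 41 genes, and for 36 of these both libraries lay below all 6 others. The mean was highest in siIPO8-NC for 34 genes, of which 31 were clear of all other libraries, and in NC for 5. The siIPO8-miR-552-3p libraries lay above both NC libraries for 11 genes, below both for 18 and overlapped them for 12. These orders were not counted over all genes tested, so they have no share of all genes to stand beside. In bulk RNA, fewer cells in S phase and less RNA of these genes per cell cannot be told apart.

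**Figure D1:**
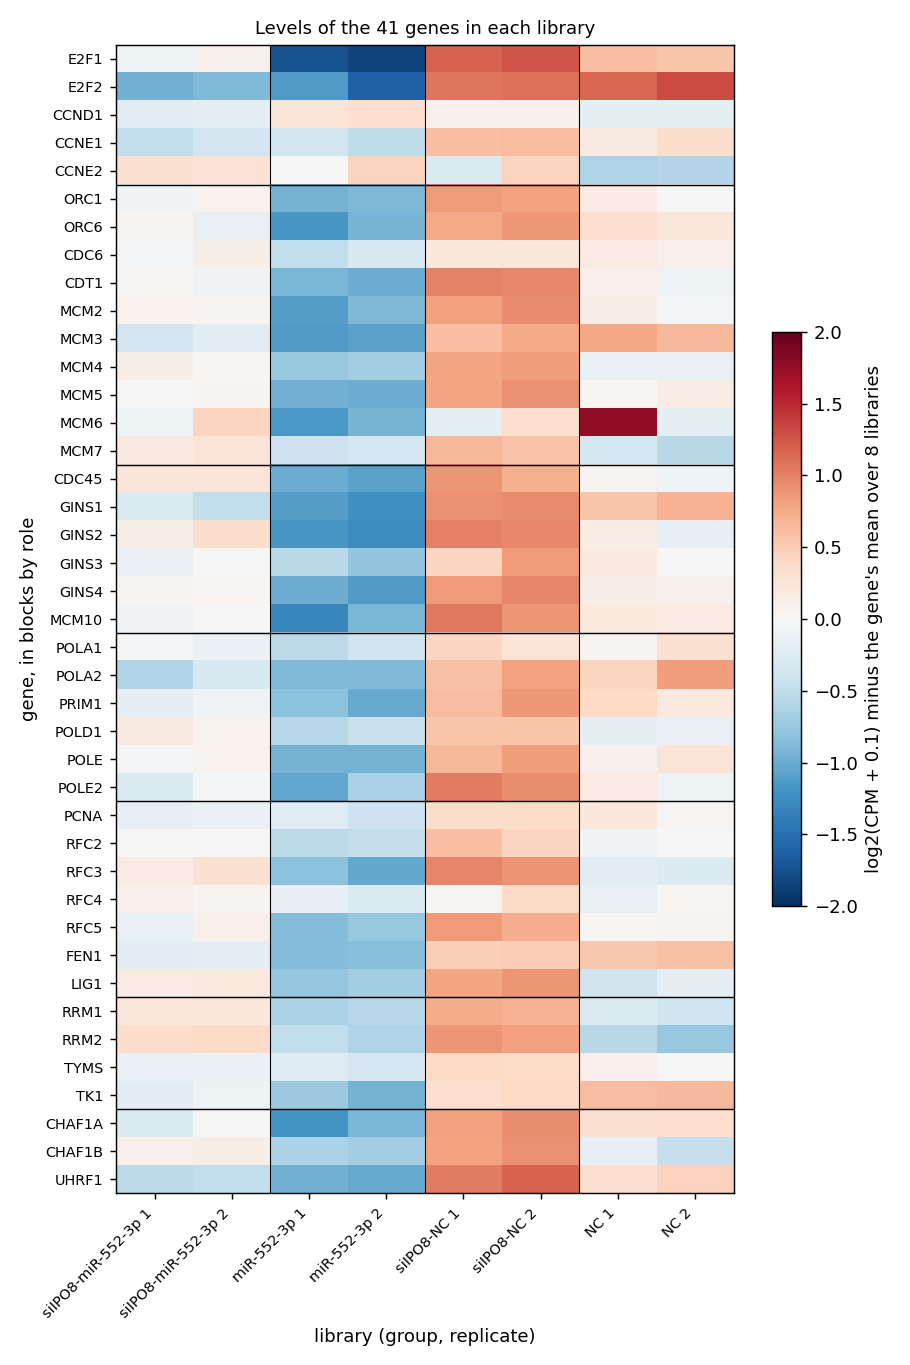
Level of each of the 41 genes (rows, in blocks by role) in each of the 8 libraries (columns), as log2(CPM + 0.1) minus the gene's mean over the 8 libraries, from blue (lower) to red (higher). The miR-552-3p columns are the bluest for 37 genes by group mean and the siIPO8-NC columns the reddest for 34. One NC library of MCM6 stands apart from its partner.

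Added to cells with the control siRNA, the mimic lowered most of these genes. In miR-552-3p over NC, edgeR's quasi-likelihood test called 36 of the 41 genes lower and 1 higher at an adjusted p under 0.05, where it called 29.5% of all genes tested lower and 28.9% higher (58.4% in either direction). The median log2 fold change of the 41 was -0.97, against -0.01 over all genes tested. CCND1 was the gene called higher, and CCNE2, MCM7, RFC4 and RRM2 were not called. Both miR-552-3p libraries lay below both NC libraries for 37 of the 41 genes, where 39.6% of all genes did, and above them for 2, where 39% did.

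With the importin8 siRNA present the mimic lowered nearly the same number. In siIPO8-miR-552-3p over siIPO8-NC, 37 genes were called lower and 0 higher, where 16.7% of all genes were called lower and 15% higher (31.7% in either direction), and CCNE2, CDC6, MCM6 and RFC4 were not called. At an unadjusted p under 0.05, and by DESeq2 and limma-voom, 0 of the 41 were higher as well. The median log2 fold change of the 41 was -0.74, against -0.00 over all genes. The libraries of the 2 groups did not overlap for 38 genes, all of them lower with the mimic, where 34.9% of all genes were lower without overlap. Over all genes, 2649 were called higher and 2958 lower, and 2107 higher and 3638 lower when libraries were scaled by their totals alone. The whole count of 5607 genes became 3545 without siIPO8-NC replicate 2 and 3551 without siIPO8-miR-552-3p replicate 1, with 36 and 34 of the 41 genes called lower in these fits.

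The 2 mimic comparisons share no library, so their calls can be set side by side. The sign was the same for 37 of the 41 genes (90.2%), against 74.6% of all genes tested. The 34 genes called lower in both made up 34 of the 36 called lower with the control siRNA and 34 of the 37 called lower with the importin8 siRNA (94.4% and 91.9%), where over all genes the 2406 called lower in both made up 46.1% and 81.3%. Across the 41 genes the log2 fold changes had a Pearson r of 0.64, against 0.51 across all genes, which describes these libraries since genes are not independent replicates. For 26 of the 41 genes the mimic's log2 fold change was closer to 0 with the importin8 siRNA (63.4%), a smaller share than the 74% over all genes tested.

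**Figure D2:**
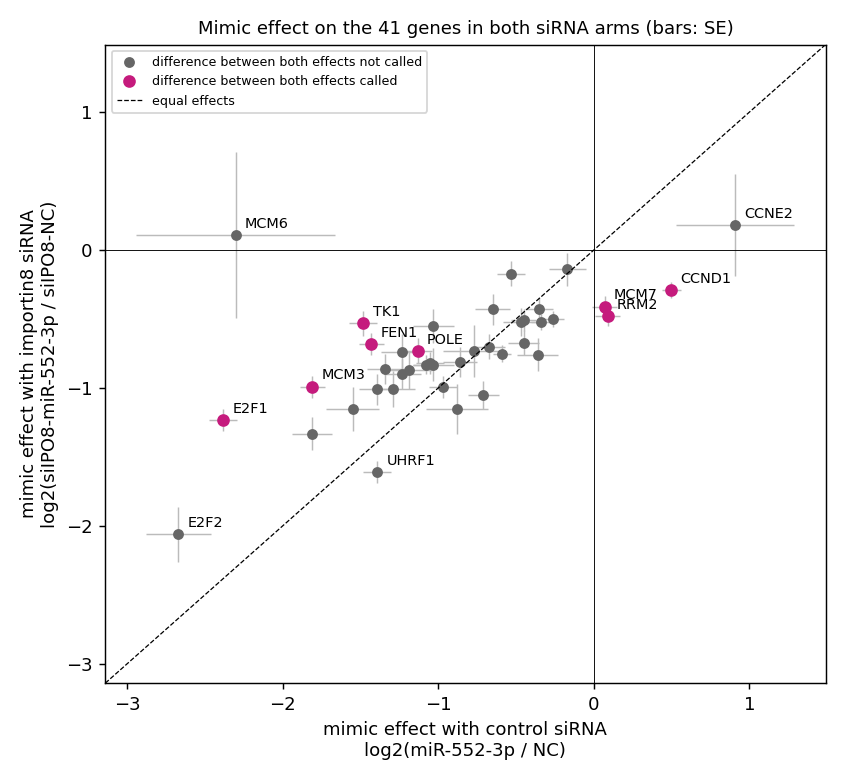
Log2 fold change of the mimic with the importin8 siRNA (vertical axis) against that with the control siRNA (horizontal axis) for the 41 genes, with bars of 1 SE and a dashed line of equal effects. The genes whose effects differed by the interaction test are coloured, and 37 of the 41 points share the sign of both effects.

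The importin8 siRNA went the other way. Each siRNA comparison shares a group with each mimic comparison, and siIPO8-NC and miR-552-3p stand on opposite sides in the comparisons that share them. The opposite directions are therefore not independent results. In siIPO8-NC over NC, 31 of the 41 genes were called higher and 1 lower, where 25.4% of all genes were called higher and 21.6% lower (47% in either direction), and the median log2 fold change was 0.64, against -0.00 over all genes. TK1 was the gene called lower, and E2F2, CCNE2, CDC6, MCM3, MCM6, POLA1, POLA2, RFC4 and FEN1 were not called. Both siIPO8-NC libraries lay above both NC libraries for 33 genes, where 37.1% of all genes did, and below them for 3 genes, where 36.4% did. The single lower call, TK1, was not made by DESeq2, nor without siIPO8-NC replicate 1, siIPO8-NC replicate 2 or NC replicate 2, where its log2 fold change was -0.29 to -0.23 at an adjusted p of 0.068 to 0.14.

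In cells that also had the mimic, siIPO8-miR-552-3p over miR-552-3p, 32 genes were called higher and 1 lower, where 17.3% of all genes were called higher and 16.2% lower (33.5% in either direction). The median log2 fold change of the 41 was 0.79, against -0.01 over all genes. CCND1 was the gene called lower, and E2F2, CCNE1, CCNE2, MCM6, POLA2, PCNA, RFC4 and TYMS were not called. Both siIPO8-miR-552-3p libraries lay above both miR-552-3p libraries for 38 genes, where 33.8% of all genes did. The 2 siRNA comparisons share no library either: 35 of the 41 genes had the same sign in both (85.4%, against 61.2% of all genes), and the 27 called higher in both were 27 of the 31 called with the control mimic and 27 of the 32 called with the mimic (87.1% and 84.4%). Over all genes the 1768 called higher in both made up 39.3% and 57.6%. Across the 41 genes r was 0.24, against 0.21 across all genes.

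**Figure D3:**
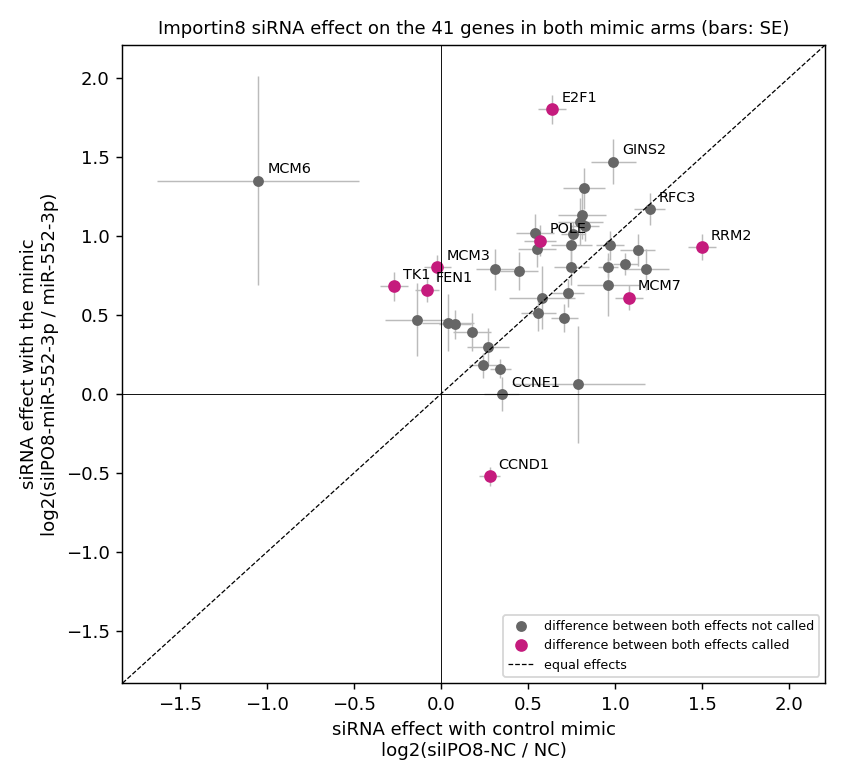
Log2 fold change of the importin8 siRNA with the mimic (vertical axis) against that with the control mimic (horizontal axis) for the 41 genes, with bars of 1 SE and a dashed line of equal effects. Most points lie above 0 on both axes. On the horizontal axis 5 genes lie below 0, of which only TK1 was called, and MCM6, not called, lies furthest at -1.05. CCND1 lies below 0 on the vertical axis.

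Among the cell cycle drivers both E2F genes were lower with the mimic in either siRNA arm. E2F1, the transcription factor that turns on much of the S phase program, stood at 25.4 and 28.7 CPM in siIPO8-miR-552-3p, 8.06 and 7.49 CPM in miR-552-3p, 61.5 and 65.2 CPM in siIPO8-NC, and 41.2 and 40.1 CPM in NC. No group overlapped another, with miR-552-3p lowest and siIPO8-NC highest. Its log2 fold change with the mimic was -1.23 (SE 0.08, adjusted p = 6.1e-06) in the importin8 siRNA arm and -2.38 (SE 0.09, adjusted p = 1.6e-08) in the control siRNA arm, and the difference of 1.16 (SE 0.12, adjusted p = 8e-05) passed the interaction test. With the importin8 siRNA it was higher both with the mimic, at 1.80 (SE 0.09, adjusted p = 1.2e-06), and with the control mimic, at 0.64 (SE 0.08, adjusted p = 9.1e-05).

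E2F2, a second activating member of the family, stood at 1.63 and 1.71 CPM in siIPO8-miR-552-3p, 1.42 and 0.989 CPM in miR-552-3p, 6.91 and 7.06 CPM in siIPO8-NC, and 7.29 and 8.15 CPM in NC. All mimic libraries lay far below all libraries with the control mimic, and the siIPO8-NC libraries lay below those of NC. The log2 fold change with the mimic was -2.06 (SE 0.20, adjusted p = 6.7e-05) with the importin8 siRNA and -2.67 (SE 0.21, adjusted p = 2.4e-06) with the control siRNA, while neither siRNA comparison was called, at 0.47 with the mimic and -0.14 with the control mimic.

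CCNE1 encodes cyclin E1, which activates CDK2 at the entry into S phase, and stood at 9.86 and 10.6 CPM in siIPO8-miR-552-3p, 10.7 and 9.75 CPM in miR-552-3p, 21.2 and 21.4 CPM in siIPO8-NC, and 15.8 and 17.7 CPM in NC. Its mimic libraries overlapped each other whichever siRNA was used, and lay below all libraries with the control mimic. The mimic changed it by -1.05 (SE 0.10, adjusted p = 6.2e-05) with the importin8 siRNA and by -0.71 (SE 0.10, adjusted p = 0.0002) with the control siRNA. Its rise of 0.35 in siIPO8-NC over NC (adjusted p = 0.016) was not called without NC replicate 1, siIPO8-NC replicate 1 or siIPO8-NC replicate 2, where it was 0.26 to 0.36 at an adjusted p of 0.063 to 0.11.

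CCND1, encoding the cyclin D1 that starts the phosphorylation of the retinoblastoma protein, was the one gene of the 41 called higher with the mimic and control siRNA, at 177 and 182 CPM in siIPO8-miR-552-3p, 251 and 262 CPM in miR-552-3p, 220 and 220 CPM in siIPO8-NC, and 181 and 183 CPM in NC. The miR-552-3p libraries were the highest and the siIPO8-miR-552-3p libraries overlapped those of NC. The log2 fold change with the mimic was -0.29 (SE 0.06, adjusted p = 0.0042) with the importin8 siRNA and 0.50 (SE 0.06, adjusted p = 4.7e-05) with the control siRNA. The first of these calls was missed without siIPO8-miR-552-3p replicate 1, at -0.26 with an adjusted p of 0.051, and the difference between both effects was -0.79 (SE 0.08, adjusted p = 8.2e-05). CCNE2, the other cyclin E gene, had only 17 to 38 counts in a library and passed no test, and 37.1% of its exonic bases overlap another annotated gene.

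**Figure D4:**
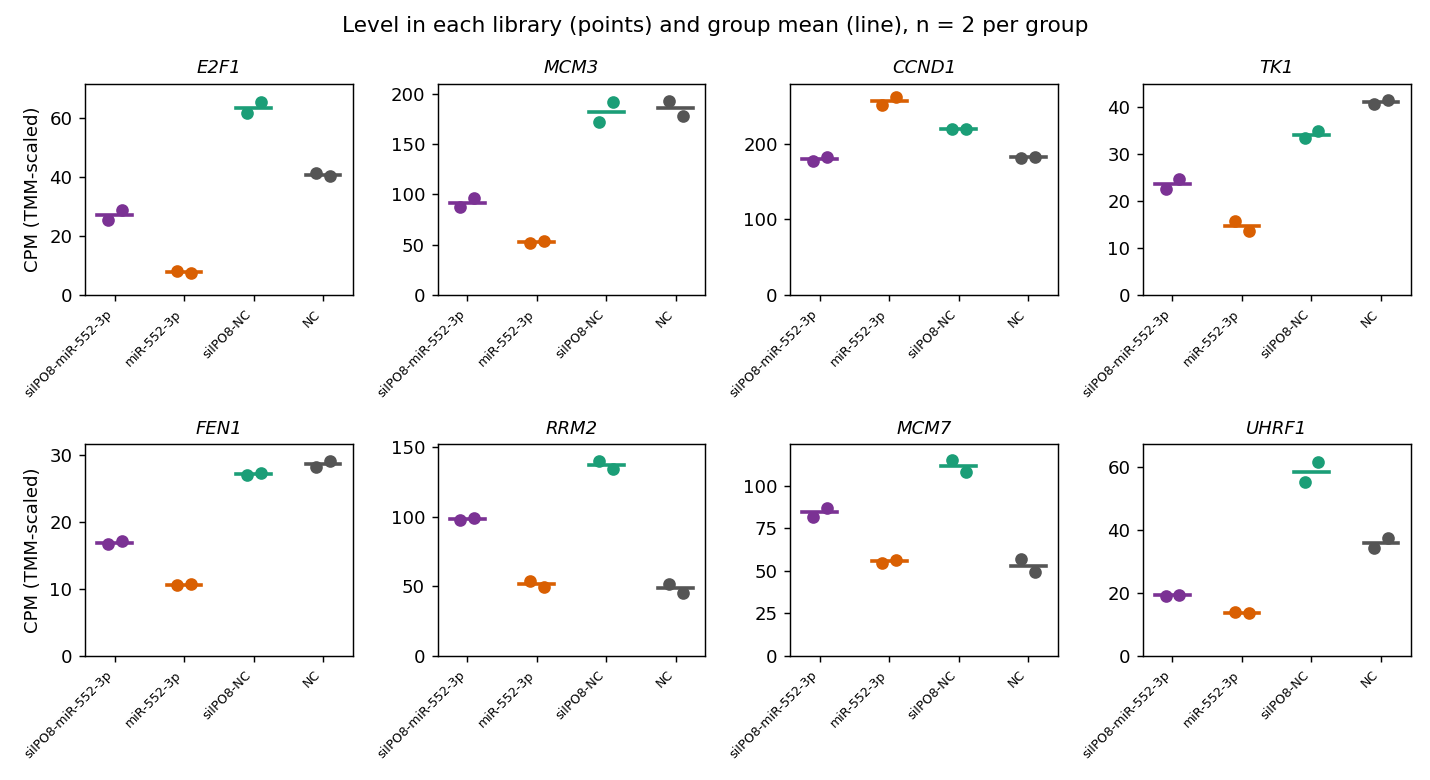
CPM, scaled by TMM, of E2F1, MCM3, CCND1, TK1, FEN1, RRM2, MCM7 and UHRF1 in each library (points) with the mean of 2 libraries (line), each panel from 0. CCND1 is highest in miR-552-3p, E2F1, UHRF1, RRM2 and MCM7 are highest in siIPO8-NC, and TK1 and FEN1 are highest in NC.

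Of the 10 genes of origin licensing, 9 were lower with the mimic and control siRNA and 8 with the mimic and importin8 siRNA. Of all genes, 29.5% and 16.7% were called lower in these comparisons. With the siRNA, 25.4% of all genes were called higher with the control mimic and 17.3% with the mimic. The counts of the roles below stand beside the same shares. MCM3, a subunit of the helicase ring, stood at 87.5 and 96.3 CPM in siIPO8-miR-552-3p, 51.5 and 53.8 CPM in miR-552-3p, 172 and 192 CPM in siIPO8-NC, and 193 and 178 CPM in NC. Its siIPO8-NC and NC libraries overlapped, and all mimic libraries lay below them. The mimic's log2 fold change was -0.99 (SE 0.08, adjusted p = 1.7e-05) with the importin8 siRNA and -1.81 (SE 0.08, adjusted p = 4.1e-08) with the control siRNA, a difference of 0.83 (SE 0.11, adjusted p = 0.00037). The siRNA raised it with the mimic, by 0.80 (SE 0.08, adjusted p = 4.9e-05), and its log2 fold change with the control mimic was -0.02 (SE 0.08, adjusted p = 0.83).

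ORC6, a subunit of the origin recognition complex, stood at 13.9 and 12 CPM in siIPO8-miR-552-3p, 5.91 and 6.93 CPM in miR-552-3p, 22.7 and 24.4 CPM in siIPO8-NC, and 16.8 and 15.7 CPM in NC, with no overlap between groups. The mimic changed it by -0.86 (SE 0.11, adjusted p = 0.00034) with the importin8 siRNA and by -1.34 (SE 0.12, adjusted p = 6.7e-06) with the control siRNA on the log2 scale. MCM5, another subunit of the ring, had 34.9 and 36.2 CPM in siIPO8-miR-552-3p, 17.9 and 17.5 CPM in miR-552-3p, 60.5 and 65.7 CPM in siIPO8-NC, and 35.9 and 38.8 CPM in NC. Its siIPO8-miR-552-3p libraries overlapped those of NC, while miR-552-3p was lowest and siIPO8-NC highest. Its log2 fold change was -1.08 (SE 0.08, adjusted p = 1.3e-06) with the mimic and control siRNA and 0.76 (SE 0.07, adjusted p = 2e-05) with the importin8 siRNA and control mimic.

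MCM7, a further subunit, did not share the mimic's fall in the control siRNA arm. It stood at 81.7 and 87 CPM in siIPO8-miR-552-3p, 54.4 and 56.5 CPM in miR-552-3p, 115 and 108 CPM in siIPO8-NC, and 56.7 and 49 CPM in NC, so the miR-552-3p libraries overlapped those of NC and both groups with the importin8 siRNA lay above them. The mimic's log2 fold change was -0.41 (SE 0.08, adjusted p = 0.003) with the importin8 siRNA and 0.07 (SE 0.08, adjusted p = 0.49) with the control siRNA, with a difference of -0.48 (SE 0.11, adjusted p = 0.0089). The siRNA raised it by 0.61 (SE 0.08, adjusted p = 0.00027) with the mimic and 1.08 (SE 0.08, adjusted p = 3.2e-06) with the control mimic.

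The other licensing genes ORC1, CDT1, MCM2 and MCM4 were called in all 4 comparisons, lower with the mimic and higher with the siRNA. CDT1, which loads the ring together with CDC6, changed by -0.99 and -0.97 with the mimic in the importin8 and control siRNA arms. CDC6 was called lower with the mimic and control siRNA, at -0.53, and higher with the siRNA in mimic-treated cells, at 0.44, and in no other comparison. MCM6 had 13 to 115 counts in a library and a level of 0.415 FPKM in siIPO8-miR-552-3p, 0.165 FPKM in miR-552-3p, 0.43 FPKM in siIPO8-NC and 0.895 FPKM in NC, with 5.18 and 1.27 CPM in the NC libraries. Its lower call with the mimic and control siRNA, -2.30 (SE 0.64, adjusted p = 0.014), became -0.96 at an adjusted p of 0.12 without NC replicate 1, -2.17 at 0.092 without miR-552-3p replicate 1 and -2.42 at 0.069 without miR-552-3p replicate 2.

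All 6 genes of helicase activation were lower with the mimic in both siRNA arms and higher with the siRNA in both mimic arms. Their median log2 fold change was -0.81 and -1.21 with the mimic in the importin8 and control siRNA arms, and 1.11 and 0.81 with the siRNA in the mimic and control mimic arms. GINS1, a subunit of the GINS complex, stood at 7.65 and 6.64 CPM in siIPO8-miR-552-3p, 4.3 and 3.96 CPM in miR-552-3p, 17.8 and 18.2 CPM in siIPO8-NC, and 13.8 and 15.2 CPM in NC, with no overlap of groups. The mimic's log2 fold change was -1.33 (SE 0.12, adjusted p = 3.4e-05) with the importin8 siRNA and -1.81 (SE 0.13, adjusted p = 9.1e-07) with the control siRNA. Its rise with the importin8 siRNA and control mimic, 0.31 (SE 0.11, adjusted p = 0.042), was not called without any one of the NC or siIPO8-NC libraries, at 0.24 to 0.39 and an adjusted p of 0.055 to 0.2.

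MCM10, which helps turn the loaded ring into a working helicase, stood at 9.47 and 9.92 CPM in siIPO8-miR-552-3p, 3.94 and 5.18 CPM in miR-552-3p, 20.7 and 18.3 CPM in siIPO8-NC, and 11.3 and 11.1 CPM in NC, and every mimic library lay below every library with the control mimic. Its log2 fold change was -1.01 (SE 0.13, adjusted p = 0.00032) and -1.29 (SE 0.14, adjusted p = 2.9e-05) with the mimic in the importin8 and control siRNA arms. GINS2, a further GINS subunit, had 11.9 and 14 CPM in siIPO8-miR-552-3p, 4.81 and 4.52 CPM in miR-552-3p, 22 and 21.4 CPM in siIPO8-NC, and 12.2 and 9.73 CPM in NC, with siIPO8-miR-552-3p overlapping NC. The siRNA raised GINS2 by 1.47 (SE 0.14, adjusted p = 4e-05) with the mimic and 0.99 (SE 0.13, adjusted p = 0.00015) with the control mimic on the log2 scale. CDC45 and GINS4 were called in all 4 comparisons in the same directions, though CDC45 with the mimic and importin8 siRNA was not called without siIPO8-NC replicate 1, at -0.46 with an adjusted p of 0.065. Each of the 4 calls of GINS3 was missed without at least 1 library. For siIPO8-miR-552-3p over siIPO8-NC its value was -0.8 to -0.5 when siIPO8-NC replicate 2 or either of the libraries of siIPO8-miR-552-3p was left out. For miR-552-3p over NC it was -0.64 without miR-552-3p replicate 2. For siIPO8-miR-552-3p over miR-552-3p it was 0.49 to 0.75 when any one of the 4 mimic libraries was left out, and for siIPO8-NC over NC it was 0.35 to 0.48 without replicate 2 of NC or of siIPO8-NC.

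All 6 polymerase and primase genes were lower with the mimic in both arms, and 5 and 4 of them were higher with the siRNA in the mimic and control mimic arms. POLA2, the accessory subunit of DNA polymerase alpha, stood at 6.78 and 8.4 CPM in siIPO8-miR-552-3p, 5.59 and 5.56 CPM in miR-552-3p, 15.5 and 18.2 CPM in siIPO8-NC, and 14 and 18.6 CPM in NC. The mimic libraries lay below all others, while those of siIPO8-NC and NC overlapped, and 35.1% of the exonic bases of POLA2 overlap another gene. Its log2 fold change was -1.15 (SE 0.16, adjusted p = 0.00056) and -1.55 (SE 0.17, adjusted p = 2.5e-05) with the mimic in the importin8 and control siRNA arms. PRIM1, the catalytic primase subunit, had 18.1 and 19.6 CPM in siIPO8-miR-552-3p, 11.7 and 10.3 CPM in miR-552-3p, 32.3 and 38 CPM in siIPO8-NC, and 27.5 and 23.9 CPM in NC, with no overlap of groups. The mimic changed it by -0.90 (SE 0.11, adjusted p = 0.00024) and -1.23 (SE 0.12, adjusted p = 1e-05) in the same arms. Its rise with the siRNA and control mimic, 0.45 (SE 0.11, adjusted p = 0.0065), was 0.34 with an adjusted p of 0.064 without siIPO8-NC replicate 2.

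POLE, the catalytic subunit of the leading strand polymerase, stood at 28.7 and 30.9 CPM in siIPO8-miR-552-3p, 15.2 and 15.2 CPM in miR-552-3p, 46.7 and 52.3 CPM in siIPO8-NC, and 31.1 and 35.3 CPM in NC. Each group was clear of the others, and both siIPO8-miR-552-3p libraries lay below both NC libraries. The mimic changed it by -0.73 (SE 0.09, adjusted p = 0.00021) with the importin8 siRNA and -1.13 (SE 0.09, adjusted p = 3.7e-06) with the control siRNA on the log2 scale. The difference of 0.40 (SE 0.13, adjusted p = 0.042) was not called in 9 of 16 alternatives. Leaving out NC replicate 2, siIPO8-NC replicate 1 or any one of the 4 mimic libraries gave 0.31 to 0.45 at an adjusted p of 0.072 to 0.16.

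POLE2 and POLD1, a subunit of polymerase epsilon and the catalytic subunit of polymerase delta, were called in all 4 comparisons, lower with the mimic and higher with the siRNA. The call of POLE2 for siIPO8-miR-552-3p over miR-552-3p was missed at 0.5 (adjusted p = 0.15) without miR-552-3p replicate 1 and at 0.57 (adjusted p = 0.14) without siIPO8-miR-552-3p replicate 2. That of POLD1 was missed at -0.36 (adjusted p = 0.053) without siIPO8-miR-552-3p replicate 2 in the importin8 siRNA arm and at -0.28 (adjusted p = 0.071) without miR-552-3p replicate 1 in the control siRNA arm. POLA1, the catalytic subunit of polymerase alpha, changed by -0.43 and -0.65 with the mimic in the importin8 and control siRNA arms, and the first of these was -0.47 to -0.35 at an adjusted p of 0.061 to 0.11 when siIPO8-NC replicate 1 or either of the libraries of siIPO8-miR-552-3p was left out. Its rise of 0.39 with the siRNA and mimic was missed without any one of the 4 mimic libraries, at 0.34 to 0.46. For 2 of the 139 calls of the 41 genes in the 4 comparisons the mean deposited FPKM did not go the way of the counts. POLA1 stood at 8.41 FPKM in siIPO8-miR-552-3p and 8.38 FPKM in siIPO8-NC, and POLE2 at 2.58 FPKM in siIPO8-miR-552-3p and 2.94 FPKM in miR-552-3p.

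Among the 7 genes of the clamp, its loader and the joining of Okazaki fragments, 6 were lower with the mimic in each siRNA arm. FEN1, the nuclease that trims the flaps of Okazaki fragments, stood at 16.7 and 17.1 CPM in siIPO8-miR-552-3p, 10.6 and 10.7 CPM in miR-552-3p, 27 and 27.3 CPM in siIPO8-NC, and 28.3 and 29.2 CPM in NC. The mimic groups lay far below the others, and NC lay just above siIPO8-NC. Its log2 fold change with the mimic was -0.68 (SE 0.08, adjusted p = 0.00014) with the importin8 siRNA and -1.43 (SE 0.08, adjusted p = 2.1e-07) with the control siRNA, a difference of 0.74 (SE 0.11, adjusted p = 0.00072), and with the siRNA it changed in mimic-treated cells by 0.66 (SE 0.08, adjusted p = 0.0002), against -0.08 (SE 0.07, adjusted p = 0.4) with the control mimic.

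RFC5 and RFC3 are subunits of replication factor C, which loads the sliding clamp. RFC5 had 15.1 and 18.1 CPM in siIPO8-miR-552-3p, 9.2 and 9.85 CPM in miR-552-3p, 30.5 and 27.8 CPM in siIPO8-NC, and 17.1 and 17.5 CPM in NC, with siIPO8-miR-552-3p overlapping NC, and its log2 fold change with the mimic was -0.81 (SE 0.11, adjusted p = 0.00031) with the importin8 siRNA and -0.86 (SE 0.11, adjusted p = 9.1e-05) with the control siRNA. RFC3 had 23.6 and 26 CPM in siIPO8-miR-552-3p, 11.8 and 10.3 CPM in miR-552-3p, 41.5 and 39.3 CPM in siIPO8-NC, and 17.9 and 17.3 CPM in NC, so both siIPO8-miR-552-3p libraries lay above both NC libraries. The mimic changed RFC3 by -0.70 (SE 0.09, adjusted p = 0.00027) with the importin8 siRNA and -0.67 (SE 0.10, adjusted p = 0.00021) with the control siRNA. The siRNA raised RFC3 by 1.17 (SE 0.10, adjusted p = 1.5e-05) with the mimic and 1.20 (SE 0.09, adjusted p = 4.2e-06) with the control mimic on the log2 scale.

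PCNA, the clamp itself, changed by -0.51 (SE 0.08, adjusted p = 0.00079) and -0.45 (SE 0.08, adjusted p = 0.00063) with the mimic in the importin8 and control siRNA arms. Its rise of 0.24 with the siRNA and control mimic was missed without NC replicate 2 or either siIPO8-NC library, at 0.15 to 0.25 and an adjusted p of 0.089 to 0.15. LIG1, which seals Okazaki fragments, and RFC2 were called in all 4 comparisons, lower with the mimic and higher with the siRNA. RFC4 was called in none from counts, but its deposited level was 10.8 FPKM in siIPO8-miR-552-3p, 6.26 FPKM in miR-552-3p, 14.3 FPKM in siIPO8-NC and 8.23 FPKM in NC. The gene length implied by its counts and FPKM was 2835, 4051, 2459 and 3641 bases in those groups, so count and FPKM do not give the same picture of RFC4, and FPKM was not tested. The implied length also differed between groups for E2F2, CCNE2, POLA1, POLA2, POLE2 and RFC5, by 1.29 to 1.72 times.

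The 4 genes of nucleotide supply were all lower with the mimic and importin8 siRNA, and 3 of them with the mimic and control siRNA. TK1, the thymidine salvage kinase, stood at 22.6 and 24.7 CPM in siIPO8-miR-552-3p, 15.7 and 13.7 CPM in miR-552-3p, 33.3 and 34.8 CPM in siIPO8-NC, and 40.5 and 41.4 CPM in NC. NC was its highest group and no group overlapped another. The mimic's log2 fold change was -0.53 (SE 0.09, adjusted p = 0.0013) with the importin8 siRNA and -1.48 (SE 0.09, adjusted p = 3.3e-07) with the control siRNA, a difference of 0.95 (SE 0.12, adjusted p = 0.00031). With the mimic the siRNA raised it by 0.68 (SE 0.09, adjusted p = 0.00031).

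RRM2, the small subunit of ribonucleotide reductase, which makes deoxyribonucleotides, stood at 97.6 and 99.1 CPM in siIPO8-miR-552-3p, 53.9 and 49.5 CPM in miR-552-3p, 140 and 134 CPM in siIPO8-NC, and 51.8 and 45.2 CPM in NC. The libraries of miR-552-3p and NC overlapped, and those of both importin8 siRNA groups lay above them. Its rise with the siRNA and control mimic, 1.50 (SE 0.08, adjusted p = 3.5e-07), was the largest of the 41 genes in that comparison, and with the mimic it was 0.93 (SE 0.08, adjusted p = 1.5e-05). The mimic's log2 fold change was -0.48 (SE 0.07, adjusted p = 0.00089) with the importin8 siRNA and 0.09 (SE 0.08, adjusted p = 0.34) with the control siRNA, a difference of -0.58 (SE 0.11, adjusted p = 0.0028).

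RRM1, the large subunit, had 54.7 and 54.3 CPM in siIPO8-miR-552-3p, 30 and 31.6 CPM in miR-552-3p, 78.6 and 75.5 CPM in siIPO8-NC, and 38.1 and 35.6 CPM in NC, with every group apart from the others and both siIPO8-miR-552-3p libraries above NC. Its fall with the mimic and control siRNA, -0.26 (SE 0.07, adjusted p = 0.0082), was -0.22 with an adjusted p of 0.063 without miR-552-3p replicate 1. TYMS, which makes thymidylate, had 53.9 and 54.4 CPM in siIPO8-miR-552-3p, 49.9 and 47.3 CPM in miR-552-3p, 78.5 and 76.7 CPM in siIPO8-NC, and 63.7 and 59.2 CPM in NC, again with no overlap of groups. The mimic changed it by -0.52 (SE 0.06, adjusted p = 0.00022) with the importin8 siRNA and -0.34 (SE 0.06, adjusted p = 0.0012) with the control siRNA. Of its exonic bases 46.6% overlap another annotated gene. RRM2, PCNA and TYMS have 3, 3 and 2 annotated pseudogenes, and RFC3, RFC5 and FEN1 have 1 each. Reads shared with pseudogenes or overlapping genes could move the levels of these genes.

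The 3 genes that restore chromatin behind the fork were lower with the mimic and higher with the siRNA in every comparison. UHRF1, which brings the maintenance methyltransferase to newly copied DNA, stood at 18.9 and 19.4 CPM in siIPO8-miR-552-3p, 13.9 and 13.5 CPM in miR-552-3p, 55.4 and 61.6 CPM in siIPO8-NC, and 34.2 and 37.3 CPM in NC. The mimic's log2 fold change was -1.61 (SE 0.08, adjusted p = 1.8e-06) with the importin8 siRNA and -1.39 (SE 0.09, adjusted p = 4.2e-07) with the control siRNA, and the difference of -0.23 was not called (adjusted p = 0.19). CHAF1A, the large subunit of chromatin assembly factor 1, had 17.1 and 20.4 CPM in siIPO8-miR-552-3p, 8.93 and 10.9 CPM in miR-552-3p, 36.3 and 39.5 CPM in siIPO8-NC, and 25.6 and 26.1 CPM in NC, with no overlap of groups. The mimic changed it by -1.01 (SE 0.11, adjusted p = 0.00012) with the importin8 siRNA and -1.39 (SE 0.12, adjusted p = 4.6e-06) with the control siRNA.

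CHAF1B, a second subunit of that factor, had 10.1 and 10.2 CPM in siIPO8-miR-552-3p, 6 and 5.75 CPM in miR-552-3p, 16.5 and 17.8 CPM in siIPO8-NC, and 8.33 and 6.79 CPM in NC, and both siIPO8-miR-552-3p libraries lay above both NC libraries. Its fall with the mimic and control siRNA, -0.36 (SE 0.13, adjusted p = 0.039), was missed in 10 of 17 alternatives. Leaving out any one library other than NC replicate 2 gave -0.39 to -0.21 at an adjusted p of 0.058 to 0.25.

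The test of the difference between both mimic effects called 8 of the 41 genes, where it called 31.3% of all genes. The effect was higher with the importin8 siRNA for E2F1, MCM3, POLE, FEN1 and TK1, where 14.2% of all genes were called higher, and lower for CCND1, MCM7 and RRM2, where 17.1% of all genes were called lower. The median difference over the 41 was 0.20, against -0.02 over all genes. The first 5 were genes whose fall with the mimic was closer to 0 with the importin8 siRNA, and the last 3 were called lower with the mimic in the importin8 siRNA arm while CCND1 was called higher and MCM7 and RRM2 were not called in the control siRNA arm.

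By promoter letters, 22 of 24 genes with an E2F motif and 11 of 12 without were called lower with the mimic and control siRNA. Of all genes, 29.5% were called lower there. With the mimic and importin8 siRNA, 21 of 24 and 12 of 12 were called lower, where 16.7% of all genes were. The medians with and without a motif were -1.09 and -0.74 with the control siRNA, and -0.82 and -0.69 with the importin8 siRNA. For the siRNA with the control mimic they were 0.55 and 0.74. These are descriptions with no test between the sets of genes.

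Per gene length, the members differed widely in level. PCNA had the highest FPKM of the 41 in all groups, at 67 FPKM in siIPO8-miR-552-3p, 60.4 FPKM in miR-552-3p, 100 FPKM in siIPO8-NC and 86.2 FPKM in NC, against medians over the 41 of 7.47, 4.17, 11.9 and 8.23 FPKM in the same groups. In the ring of MCM2 to MCM7, MCM7 had the highest FPKM in both mimic groups, 32.3 in siIPO8-miR-552-3p and 21.4 in miR-552-3p, while MCM3 had it in both control mimic groups, 59.3 in siIPO8-NC and 60.9 in NC. GINS2 was the most abundant of the GINS subunits per length, at 10.8, 3.94, 19 and 9.68 FPKM in siIPO8-miR-552-3p, miR-552-3p, siIPO8-NC and NC, and GINS4 the least, at 1.71, 0.825, 3.5 and 2.08 FPKM.

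**Figure D5:**
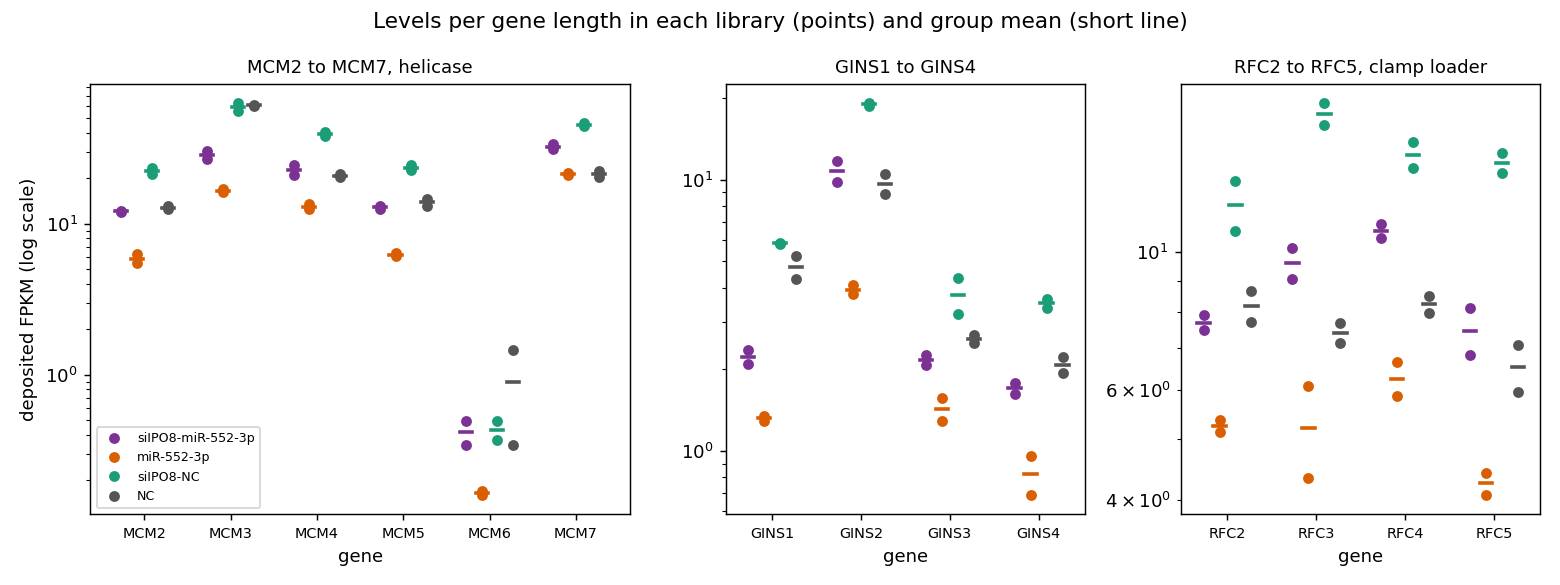
FPKM on a log axis of the subunits of the MCM2 to MCM7 ring, the GINS complex and replication factor C in each library (points) with group means (short lines). MCM6 lies far below the other ring subunits, at group means of 0.165 to 0.895 FPKM.

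Genes of the same pathway outside the 41 moved in part with them. Of 43 other replication genes, 28 were lower and 2 higher with the mimic and importin8 siRNA (median -0.37), and 22 lower and 14 higher with the mimic and control siRNA (median -0.30). All genes tested were called lower at 16.7% and higher at 15% in the importin8 siRNA arm, and lower at 29.5% and higher at 28.9% in the control siRNA arm, so the 14 higher are near the share of all genes. The siRNA raised 27 and lowered 4 of them with the mimic and raised 35 and lowered 4 with the control mimic (medians 0.57 and 0.61). Of all genes, 17.3% were called higher and 16.2% lower with the mimic, and 25.4% higher and 21.6% lower with the control mimic. CLSPN, a mediator of the replication checkpoint, changed by -0.97 (SE 0.12, adjusted p = 0.00026) and -1.70 (SE 0.13, adjusted p = 1.7e-06) with the mimic in the importin8 and control siRNA arms. DTL, a receptor of the ubiquitin ligase that removes CDT1, changed by -1.60 (SE 0.11, adjusted p = 9.1e-07) with the mimic and control siRNA, DUT, which clears dUTP, by -1.54 (SE 0.15, adjusted p = 1.1e-05), and POLD3 by -1.49 (SE 0.17, adjusted p = 3.2e-05). With the siRNA and control mimic, WDHD1 rose by 1.43, CHTF18 by 1.33, ATAD2 by 1.12 and TIMELESS by 1.12 on the log2 scale.

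In the network of E2F, RB and G1 kinases, 11 of 23 genes were lower and 3 higher with the mimic and importin8 siRNA, and 12 lower and 8 higher with the mimic and control siRNA (medians -0.25 and -0.35). The higher calls are near the 15% and 28.9% of all genes in these comparisons, and the lower calls stand beside 16.7% and 29.5% of all genes. The phosphatase CDC25A, which activates CDK2, changed with the mimic by -1.42 (SE 0.11, adjusted p = 1.5e-05) in the importin8 siRNA arm and -1.66 (SE 0.12, adjusted p = 1.6e-06) in the control siRNA arm. E2F8, a repressor of the family, changed by -1.66 (SE 0.21, adjusted p = 0.00028) and -1.58 (SE 0.24, adjusted p = 0.00025), CDK6 by -0.85 (SE 0.09, adjusted p = 0.00012) and -1.29 (SE 0.09, adjusted p = 1.3e-06), and E2F5 by -0.37 (SE 0.09, adjusted p = 0.009) and -1.24 (SE 0.09, adjusted p = 8.5e-07) in the same order of arms. Of the 23, the siRNA raised 12 and lowered 3 with the mimic, and raised 13 and lowered 2 with the control mimic. Beside these stand 17.3% of all genes called higher and 16.2% lower with the mimic, and 25.4% and 21.6% with the control mimic. SKP2, the ubiquitin ligase subunit that removes p27, had the largest rise of the 23 with the control mimic, 1.86 (SE 0.08, adjusted p = 9e-08), and MYBL2, LIN54 and E2F8 rose by 1.28, 1.19 and 1.35.

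Of 8 inhibitors of G1 kinases 7 were tested, and 3 were called higher and 0 lower with the mimic in each siRNA arm. The median log2 fold change of the 7 was -0.10 with the importin8 siRNA and 0.53 with the control siRNA, and at 3 of 7 the share called higher stands beside 15% and 28.9% of all genes. The siRNA lowered 4 of the 7 with the mimic and 5 with the control mimic (medians -0.70 and -0.41), where 16.2% and 21.6% of all genes were called lower. CDKN1A, encoding p21, averaged 147 ± 3.85 CPM in siIPO8-miR-552-3p, 348 ± 26 CPM in miR-552-3p, 94.3 ± 11 CPM in siIPO8-NC and 95.1 ± 4.8 CPM in NC (SD, n = 2 each). The mimic raised it by 0.64 (SE 0.09, adjusted p = 0.0005) with the importin8 siRNA and 1.87 (SE 0.09, adjusted p = 7.1e-08) with the control siRNA, a difference of -1.23 (SE 0.13, adjusted p = 6.4e-05). CDKN2B rose by 2.04 (SE 0.33, adjusted p = 0.0011) and 2.17 (SE 0.28, adjusted p = 8.3e-05) and CDKN2A by 0.74 (SE 0.23, adjusted p = 0.034) and 1.43 (SE 0.21, adjusted p = 0.00022) in those arms, both at under 7 CPM in every library. With the siRNA and control mimic CDKN2B, CDKN2A, CDKN2C and CDKN1B changed by -1.56, -0.80, -0.53 and -0.41.

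Genes of G2 and mitosis, set beside the 41 as the next step of the cycle, rose with the siRNA in nearly all cases. All 30 were higher with the control mimic and 29 with the mimic (medians 1.09 and 1.06), and the mimic lowered 24 with the importin8 siRNA and 19 with the control siRNA (medians -0.50 and -0.54). Of all genes tested, 25.4% and 17.3% were called higher in those siRNA comparisons, and 16.7% and 29.5% lower in those mimic comparisons. CCNA2 rose with the siRNA and control mimic by 1.99 (SE 0.15, adjusted p = 1.7e-05), CDK1 by 1.80 (SE 0.14, adjusted p = 9.8e-06), TTK by 1.56 (SE 0.10, adjusted p = 1.6e-06) and CCNB2 by 1.45 (SE 0.09, adjusted p = 1.2e-06). With the mimic and control siRNA TOP2A changed by -1.69, NUSAP1 by -1.33, MKI67 by -1.21 and BIRC5 by -1.09, while CCNA2, CDK1, TTK and CCNB2 were not called there, at -0.40, 0.09, -0.25 and -0.17.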

How the data were processed

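Poly(A) RNA of HepG2 cells was captured with oligo(dT) beads and sequenced as single-end 50-base reads, and 8 libraries in 4 groups of 2 were grouped by their titles. Abbreviated column names were read against the titles, with 51 or 52 after NC or SI taken as the mimic libraries, and 0 columns of per-sample values were left unused. Per the file headers, the deposited table gives an expected count and an FPKM for each gene and library. The submitters' processing notes name HISAT2 2.0.4, Bowtie2 2.2.5, RSEM 1.2.8 and GRCh38.p12, with no role stated, and the sources used here do not give strand use. A second deposited table repeats the 4 control siRNA libraries and was not used. Expected counts share reads among genes with common sequence, so paralogs, pseudogenes and overlapping genes are uncertain.

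Expected counts were rounded, filtered with filterByExpr (17715 of 26716 genes), scaled by TMM and fitted over all 8 libraries, 1 mean per group, in edgeR 4.0.16 under R 4.3.3 (quasi-likelihood F test). Calls were made at an adjusted p under 0.05 (Benjamini-Hochberg, all tested genes). The SE is approximate, the size of the log2 fold change divided by the root of F. CPM is TMM-scaled, and deposited FPKM served only to compare genes per length. limma-voom (limma 3.58.1), DESeq2 1.42.0 and other scalings and filters were alternatives. Each library held 21608563 to 22102373 counts, which limits genes with few counts. The fit was tested on simulated data. Values in every library are given for the 3 members per role with the largest called mimic effect (at least 100 mean counts, no overlap). They are also given for members called against the majority and for the 4 largest differences between mimic effects. Of each other list, log2 fold changes are given for the 4 largest called changes. The members and lists were chosen with earlier results of these data known. Gene overlaps are from GENCODE on GRCh38 and sequences from RefSeq on GRCh38.p14.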

Additional observations from a re-analysis of the deposited data

Results flagged for a closer look

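By the interaction term of the fit, the mimic's effect differed between the importin8 and control siRNA arms for 8 of the 41 genes (19.5%). Of all genes tested, 31.3% were called, at a Benjamini-Hochberg adjusted p under 0.05 in edgeR. Of 28 other genes named by rule, 10 were called (35.7%). These were named for large called changes with the mimic and control siRNA, or with the importin8 siRNA and control mimic. The interaction term uses the same libraries, so this naming favours genes that differ between arms. The 35.7% is therefore not a fair share to set beside the 31.3%. Each value below is the log2 fold change of the mimic with the importin8 siRNA minus that with the control siRNA. Among the 41 genes it was 1.16 for E2F1 (adjusted p = 8e-05), 0.95 for TK1, 0.83 for MCM3, 0.74 for FEN1 and 0.40 for POLE (adjusted p = 0.042), and -0.79 for CCND1 (adjusted p = 8.2e-05), -0.58 for RRM2 and -0.48 for MCM7. CCND1 is the one of these whose mimic effect was called in both arms with opposite signs. Among the other genes of the pathway it was 0.87 for E2F5, 0.80 for TOP2A, 0.75 for NUSAP1, 0.73 for CLSPN, 0.65 for DTL, 0.53 for MKI67 and 0.45 for CDK6 (adjusted p = 0.026). It was -1.23 for CDKN1A (adjusted p = 6.4e-05), -0.69 for WDHD1 and -0.52 for LIN54. With 2 libraries a group, a difference between them does not show which of them stands apart. The call of POLE was missed in 9 of 16 alternatives.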

How the results depend on the processing

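No called value changed sign among the results recomputed under other tools, scalings, filters, groupings and left-out libraries. Of 3444 recomputed values of single members, 3300 kept their sign and their side of the threshold, 82 lost a call, 23 gained one and 39, called neither before nor after, changed sign. Calls kept in all alternatives numbered 32 of 37 for siIPO8-miR-552-3p over siIPO8-NC, 31 of 37 for miR-552-3p over NC, 29 of 33 for siIPO8-miR-552-3p over miR-552-3p, 26 of 32 for siIPO8-NC over NC and 7 of 8 for the difference between mimic effects. With 1 library left out, the genes called for siIPO8-miR-552-3p over siIPO8-NC ran from 3545 to 6087, against 5607. The 1 member called lower for siIPO8-NC over NC, TK1, became 0 with DESeq2, and 0 to 1 with 1 library left out. DESeq2 called 33, 33, 29, 28 and 7 members in the order of comparisons just given. Samples with the same replicate number did not deviate together throughout (r from -0.044 to 0.186 over the 6 pairs of groups, 11308 genes), so the numbers were not used as pairs. With the replicate block, 5847, 10424, 6121, 8496 and 5786 genes and 37, 37, 33, 31 and 9 members were called in the same order. CCNE2 and MCM6 had few counts, which limits their tests, and the cause of the low counts was not tested.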
